A study of Mus musculus with 8 samples.

Results

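The members were 10 genes for RNA-binding proteins of the ELAVL, RBFOX, NOVA and CELF families, taken as the probe sets to which the array's annotation gave their symbol alone. They came to 34 of the 34945 probe sets with a single symbol. Elavl2, Elavl3, Elavl4, Rbfox1, Rbfox3, Nova1, Celf4 and Celf6 were taken as the neuronal members, 8 genes with 24 probe sets. Elavl1 and Rbfox2, which most tissues express, were the 2 ubiquitous members, with 10 probe sets. The members were picked partly for large differences between bone metastasis and primary tumour, so their values in that contrast are given as a description, without a test.

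The study profiled 4T1.2 cells, a clonal derivative of the BALB/c mouse mammary carcinoma line 4T1 that spreads spontaneously to bone. Tumour epithelial cells were isolated from the primary tumour in the mammary gland and from the spine metastasis of 4 mice of the Balb/c strain, which gave 4 primary and 4 metastasis arrays. No genotype, treatment, age or time after transplantation was given in the sources used here, nor was the way in which epithelial cells were separated from other cells. All values below are log2 signals of the deposited table, and a difference is the metastasis mean minus the primary mean, with its standard error (SE) from a linear model fitted with limma to all 18193 genes.

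ELAVL proteins, also called Hu proteins, bind AU-rich and U-rich stretches of messenger RNA through 3 RNA recognition motifs and raise its stability or translation. RBFOX proteins bind the element UGCAUG and NOVA proteins bind YCAY clusters, and both set which exons are kept by their position next to the exon. CELF proteins bind GU-rich elements and act on splicing and on messenger RNA decay. Elavl2, Elavl3, Elavl4, Rbfox3 and Nova1 are known from neurons, Rbfox1 from neurons and muscle, and Elavl1 and Rbfox2 from most cell types, epithelial cells included. The product of Rbfox3 is NeuN, the antigen used to stain neuronal nuclei.

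The array medians lay between 5.16 and 5.17 on primary arrays and between 5.23 and 5.42 on metastasis arrays. The signal of the actin control dropped from its 3' to its 5' probe set by 1.08 to 1.90 on primary arrays and by 4.55 to 6.18 on metastasis arrays, a measure of RNA quality and amplification that parted the groups. Krt8, a keratin of simple epithelia, stood at 13.07 to 13.32 in primary tumours and at 7.34, 12.39, 9.80 and 12.97 in metastases 1 to 4. Krt18, its partner keratin, stood at 11.37 to 11.95 and at 6.05, 10.95, 8.49 and 11.86, and Krt19 was lower in metastases by limma (-3.36, SE 0.64, adjusted p = 0.00775). Epcam, another epithelial marker, stood at 8.65 to 9.26 and at 8.34 to 9.35 on its brightest probe set, while its other probe set differed by -1.48. Of all genes, 3975 passed an adjusted p of 0.05 (limma, Benjamini-Hochberg), 1768 higher and 2207 lower in metastases. After scaling each array to its 75th percentile the split was 2465 higher and 1961 lower, and the median difference of all genes moved from 0.09 to 0.30.

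The stretch around the start of the gene is printed for Elavl2 and Rbfox3, the members with the largest differences, and for Elavl1, the ubiquitous relative of Elavl2. These are RefSeq windows of assembly GRCm38.p6 from 250 bases before to 50 bases after an annotated start, in lower case with the E-box core CAGCTG in capitals. Elavl2 lies on the minus strand at chr4:91399935-91400234, Rbfox3 on the minus strand at chr11:118760992-118761291 and Elavl1 on the minus strand at chr8:4325051-4325350.
Elavl2: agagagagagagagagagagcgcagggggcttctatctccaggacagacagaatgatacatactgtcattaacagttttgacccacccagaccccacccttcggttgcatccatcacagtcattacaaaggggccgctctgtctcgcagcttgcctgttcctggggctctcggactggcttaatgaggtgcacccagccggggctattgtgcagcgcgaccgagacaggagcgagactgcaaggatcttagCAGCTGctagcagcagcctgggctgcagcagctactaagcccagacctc
Rbfox3: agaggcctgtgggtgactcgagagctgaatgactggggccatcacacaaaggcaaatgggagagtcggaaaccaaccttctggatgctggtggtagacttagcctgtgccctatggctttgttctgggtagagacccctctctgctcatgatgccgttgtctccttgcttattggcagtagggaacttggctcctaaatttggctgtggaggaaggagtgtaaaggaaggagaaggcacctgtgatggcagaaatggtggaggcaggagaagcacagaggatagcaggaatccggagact
Elavl1: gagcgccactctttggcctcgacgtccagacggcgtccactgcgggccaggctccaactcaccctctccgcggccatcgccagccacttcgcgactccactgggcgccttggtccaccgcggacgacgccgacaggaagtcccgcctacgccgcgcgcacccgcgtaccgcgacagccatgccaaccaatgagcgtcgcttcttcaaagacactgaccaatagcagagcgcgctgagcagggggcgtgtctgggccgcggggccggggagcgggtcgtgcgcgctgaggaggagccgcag
Elavl2 had 6 windows, 3 of them with CAGCTG, and which start was in use was not measured here. In all 12 strings were searched on both strands, and CAGCTG and the Elavl2 window printed were chosen for display after the matches had been seen. The Elavl1 window held 39 CG pairs and the Rbfox3 window 4, against a median of 7.0 over 32851 windows of the same length. CAGCTG, which reads the same on both strands and is a core bound by proneural transcription factors, occurred in 16.3% of all windows. It occurred in 9 of 17 windows, some of them overlapping, of the 7 neuronal members other than Celf4, whose chromosome was left out. These matches lay in windows of Elavl2, Elavl3, Elavl4, Nova1, Rbfox1 and Celf6. Nova1, with a match, had a difference of -0.09 between metastases and primary tumours, and Rbfox3, without a match, had 5.81. The general E-box CANNTG, which includes CAGCTG, was in 14 of the 17 windows, from all 7 genes, and in 72.3% of all windows. GGGCGG, the SP1-type GC box, was in 7 of the 17 windows, from 3 genes (35.7% of all windows). TATAAA, the TATA box, was in 1 window (13.6%) and TGACGTCA, the cyclic AMP response element, in 1 (1.79%). TGACG, which the cyclic AMP response element contains, was in 7 windows, from 3 genes (20.8%). Of the strings taken from or close to the element of the neuronal repressor REST, GGACAG was in 2 windows of 2 genes (22.2%). GGACAGC (6.56%), TTCAGCACC (0.371%), CAGCACC (7.14%) and GCCCTGTCC (0.612%) were in 0 of the 17 windows. The palindromic NRF1-type element was found for 0 (0.615%). None of the 12 strings lies in the window of Elavl1.

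Elavl2, Rbfox3 and Rbfox1 had the largest differences, and on each of them every metastasis array lay far above every primary array. Elavl2 read 3.28, 3.30, 3.53 and 3.48 on primary arrays 1 to 4 and 9.95, 8.87, 10.40 and 8.35 on metastasis arrays 1 to 4. The primary mean was 3.40 ± 0.13 (SD, n = 4) and the metastasis mean 9.39 ± 0.95 (SD, n = 4), a difference of 6.0 (SE 0.41) or 63.9-fold. The primary arrays lay close together and below the array median, so that the size of this fold is not exact. It was the tenth largest difference of all genes.

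Rbfox3 read 3.90, 4.92, 4.96 and 5.48 in primary tumours and 10.50, 9.17, 12.27 and 10.54 in metastases. Its difference was 5.81 (SE 0.61), or 56.0-fold, and its primary mean of 4.81 ± 0.66 (SD, n = 4) also lay below the array median. Metastasis 3 was the highest and metastasis 2 the lowest. Rbfox1 read 4.59 to 4.68 on the primary arrays, the narrowest range of the 3 genes, and 9.79, 8.23, 11.08 and 9.11 in metastases, with a difference of 4.93 (SE 0.52) or 30.4-fold. Here too metastasis 3 was the highest and metastasis 2 the lowest.

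**Figure D1:**
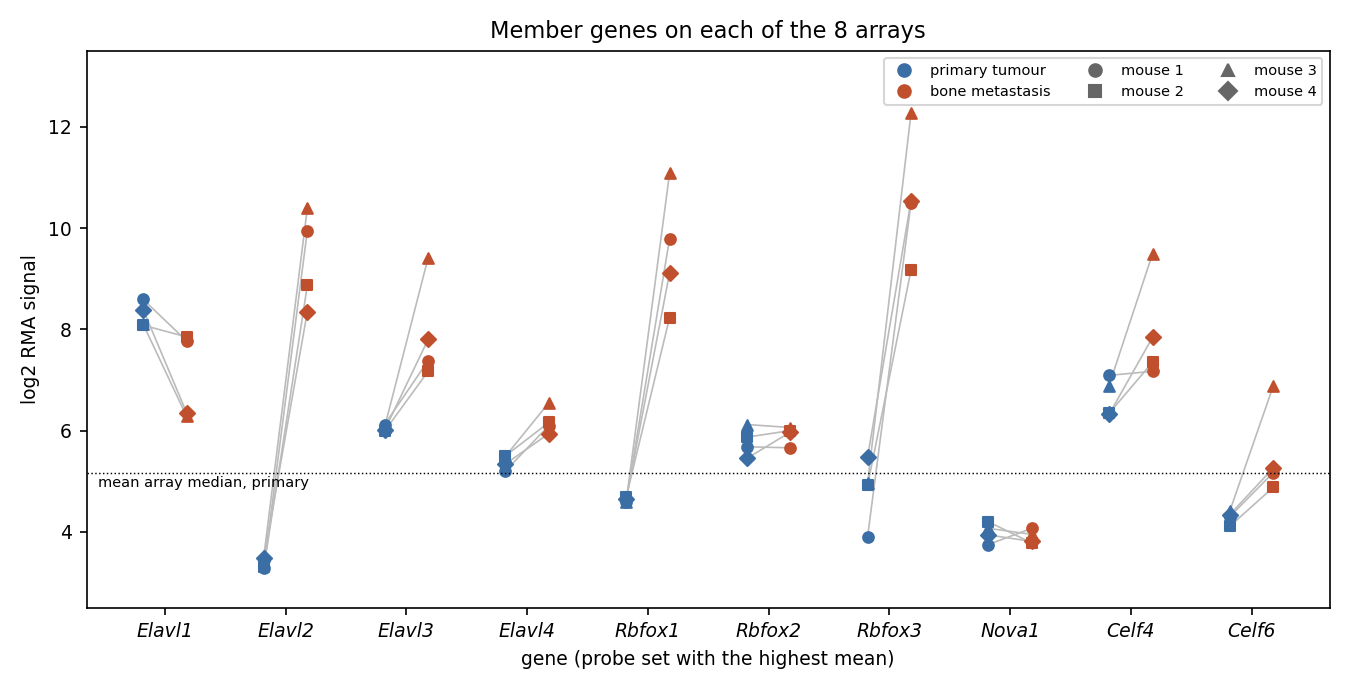
Log2 signal (vertical axis) of the 10 member genes on each array, blue for primary tumour and red for bone metastasis, with 1 symbol per mouse and a line joining its 2 arrays. Elavl2, Rbfox1 and Rbfox3 climb from 3.28 to 5.48 in primary tumours to 8.23 to 12.27 in metastases, the groups of Nova1 and Rbfox2 overlap, and Elavl1 lies lower in metastases.

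The other ELAVL genes of neurons differed less on their brightest probe sets. Elavl3 stood at 5.99 to 6.12 in primary tumours and at 7.38, 7.17, 9.41 and 7.80 in metastases 1 to 4, a difference of 1.89 (SE 0.44). Metastasis 3 stood above the other metastases, and the difference was 1.40 without it. Elavl4 stood at 5.20 to 5.50 in primary tumours and at 6.10, 6.16, 6.55 and 5.94 in metastases, a difference of 0.81 (SE 0.17). For both genes the groups did not overlap.

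The CELF members behaved like Elavl3, with metastasis 3 on top. Celf4 read 7.09, 6.34, 6.89 and 6.32 in primary tumours and 7.17, 7.35, 9.49 and 7.84 in metastases, a difference of 1.30 (SE 0.49) that was 0.79 without metastasis 3. The groups did not overlap, though the arrays of mouse 1 differed by only 0.08. Celf6, which has 1 probe set, read 4.11 to 4.41 in primary tumours and 5.17, 4.88, 6.88 and 5.26 in metastases. Its difference was 1.26 (SE 0.40), or 0.81 without metastasis 3, and its primary mean lay below the array median.

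Nova1 did not follow the other neuronal members. It read 3.75, 4.2, 4.07 and 3.94 in primary tumours and 4.07, 3.78, 3.95 and 3.81 in metastases, below the array median in both groups. Its difference was -0.09 (SE 0.15), with 1 mouse higher and 3 lower, and the other probe set gave -0.02 (SE 0.12). The sign of so small a value turned with the scaling to the 75th percentile (0.12).

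Of the ubiquitous members, Elavl1 lay lower in metastases and the groups of Rbfox2 overlapped. Elavl1, which encodes HuR, read 8.59, 8.08, 8.10 and 8.39 in primary tumours and 7.77, 7.85, 6.28 and 6.35 in metastases. The groups did not overlap, and the difference was -1.23 (SE 0.39). Metastases 3 and 4, the lowest for Elavl1, were also those with the furthest actin drop, 5.72 and 6.18 against 4.85 and 4.55 in metastases 1 and 2. Without those arrays, a choice made after seeing the data, the difference was -0.48, and the part of RNA quality in the value was not tested. Rbfox2 read 5.68, 5.87, 6.12 and 5.45 in primary tumours and 5.66, 6.0, 6.06 and 5.97 in metastases. Its groups overlapped, and its difference of 0.14 (SE 0.18) turned to -0.47 with its most variable probe set.

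Set against their ubiquitous relatives mouse by mouse, the neuronal genes differed in the same direction each time. The difference of Elavl2 exceeded that of Elavl1 by 7.49, 5.80, 8.69 and 6.92 in mice 1 to 4. The difference of Rbfox3 exceeded that of Rbfox2 by 6.63, 4.12, 7.38 and 4.54, and that of Rbfox1 did so by 5.21, 3.42, 6.55 and 3.95. For Elavl4 against Elavl1 the margin was smaller, 1.72, 0.89, 2.88 and 2.64. The median difference of the 8 neuronal members was 1.60 and the mean of the 2 ubiquitous members was -0.54, with a median of 0.09 over all 18193 genes. These contrasts follow in part from the choice of members.

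On the probe set used, 7 of the 8 neuronal genes had every metastasis array above every primary array, which held for 15.2% of all genes. Of the 2 ubiquitous genes 1, Elavl1, had every metastasis array below, which held for 14.2%. Nothing is read from these counts, since the contrast served to pick the members. Of the 24 neuronal probe sets 19 had every metastasis array above and 5 overlapped, beside 14.3% of all probe sets that lay above. Of the 10 ubiquitous probe sets 2 lay below and 8 overlapped, beside 14.0% of all probe sets.

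Probe sets of the same gene differed widely in size, so a gene's value rests on the probe set. For Elavl2 the other 4 gave 4.18 (SE 0.79), 1.41 (SE 0.34), 0.64 (SE 0.14) and 0.03 (SE 0.18). The Elavl2 probe set with 4.18 read 8.85, 7.30, 8.84 and 4.90 in metastases, with metastasis 4 far below the others. For Elavl4 the brightest probe set gave the smallest difference, and the others gave 1.55 (SE 0.23) and 2.93 (SE 0.58). Rbfox3 had values of 1.60 (SE 0.23) and 0.95 (SE 0.30) on its other probe sets, with no overlap between the groups on either. Rbfox1 had 2.66 (SE 0.58), 0.51 (SE 0.15) and 0.27 (SE 0.16), and only the last overlapped. For Elavl3 the others gave 0.82 (SE 0.30) and 0.32 (SE 0.13), both without overlap, and for Celf4 1.57 (SE 0.45) without overlap and 0.70 (SE 0.50) with it. Of the 6 probe sets of Elavl1 1 other also lay lower without overlap, at -0.97 (SE 0.22), and the remaining 4 overlapped at -0.50 to 0.14. The 4 of Rbfox2 ranged from -0.47 to 0.35, all with overlap. Where a probe set lies in the transcript was not analysed here.

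**Figure D2:**
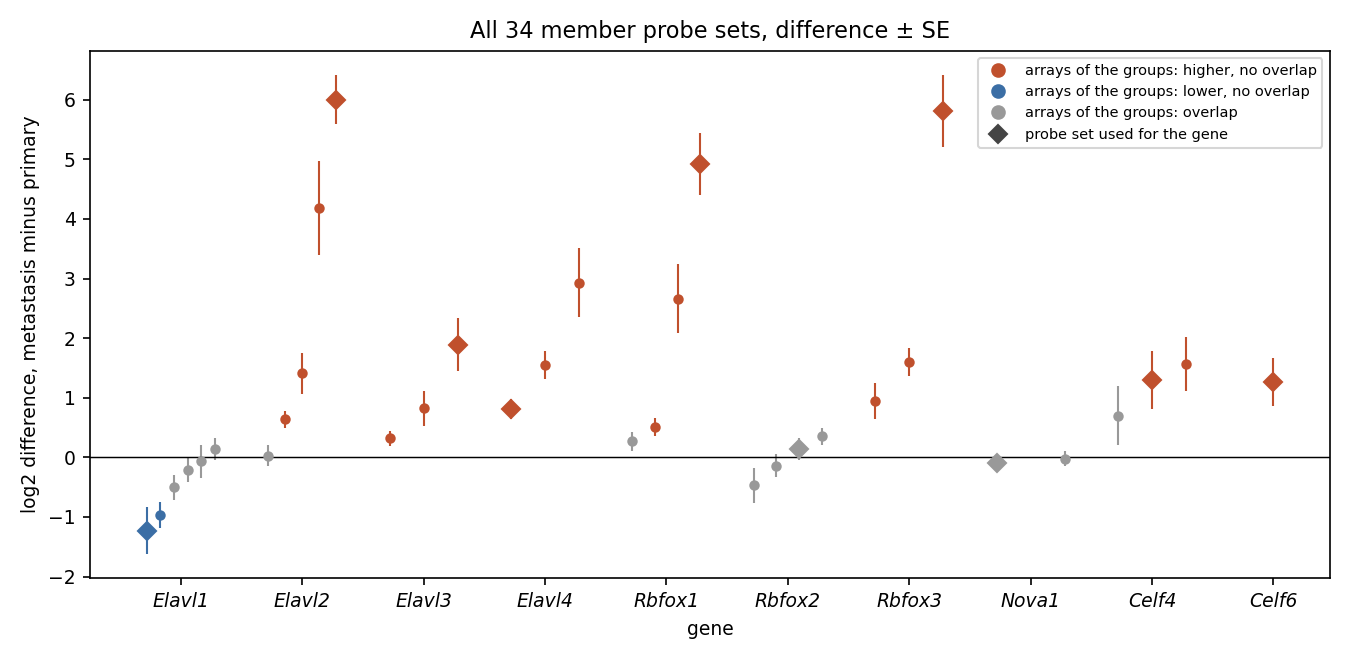
Difference in log2 signal, metastasis minus primary, with its SE (bars) for all 34 member probe sets, grouped by gene on the horizontal axis. Diamonds mark the probe set used for the gene, red marks groups that do not overlap with metastases higher, blue those with metastases lower and grey those that overlap. Probe sets of Elavl2 run from 0.03 to 6.0, while those of Nova1 lie at -0.09 and -0.02.

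Many markers of neurons were higher in metastases, as were the neuronal members other than Nova1. The marker lists were chosen with earlier results of these data known, so their calls are not independent of that choice. Of 13 pan-neuronal markers 12 rose and 0 fell in metastases (limma adjusted p under 0.05, beside 9.72% of all genes higher). Their median difference was 3.81, and their summed linear signal was 387 to 410 on primary and 7725 to 24074 on metastasis arrays. When a mouse was left out 9 to 11 were called, and when a single array was left out 12. With quantile normalization 11 were called, and with the most variable or the mean probe sets 13. Nefl, a neurofilament subunit, rose by 8.05 (SE 0.31), with a limma adjusted p of 3.45e-05. Snap25, of the synaptic release machinery, rose by 3.86 (SE 0.73), with a limma adjusted p of 0.00761. On their brightest probe sets all 10 measured markers of peripheral sensory neurons rose, with a median difference of 3.35 and sums of 252 to 271 and 1935 to 10179. With the probe set of the highest primary mean 8 of the 10 were called and the median was 1.31, with the mean of the probe sets it was 1.89 and with the mouse as a block 9 were called, and 7 to 10 were called when an array or a mouse was left out. Among them Pou4f1 and Isl1, transcription factors of sensory ganglia, rose by 3.93 (SE 0.61) and 2.79 (SE 0.49), with limma adjusted p of 0.0034 and 0.00576. Of 10 markers of central neurons 1 rose, Neurod2 by 0.42 (SE 0.13, limma adjusted p = 0.0472), and with the mouse as a block 0 did by limma (1 at an unadjusted p under 0.05). That call was also lost when any single array but metastasis 1 was left out (1 or 2 at an unadjusted p under 0.05). With the most variable probe sets 2 rose, and the other probe sets of Camk2a ran from -0.04 to 1.41. In all, 7 of the 10 lay below the array median in both groups, with sums of 404 to 446 and 372 to 537. In bulk RNA a change in the number of cells of a type and one in RNA per cell cannot be told apart, and the part of neuron RNA in the members' values was not tested.

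Metastasis 3 was the highest of the 4 metastases for the mean of the pan-neuronal and of the sensory markers and for every member but Nova1 and Elavl1. The mean of the central neuron markers was highest in metastasis 4 (0.40, against 0.22 in metastasis 3), and single markers peaked on other arrays too, such as Snap25 in metastasis 2 (8.71 against 7.13) and Nefm in metastasis 1 (11.19 against 10.82). Relative to the primary mean, the mean of the pan-neuronal markers was 3.94, 3.25, 4.41 and 2.88 in metastases 1 to 4, highest in metastasis 3 and lowest in metastasis 4. Elavl2 stood 6.56, 5.47, 7.0 and 4.96 above its primary mean, in the same order. Its standard deviation over the metastases was 0.95, and 0.27 once the marker mean of each array was subtracted. For Rbfox3 the standard deviation went from 1.27 to 0.92 and for Rbfox1 from 1.2 to 0.72. For Elavl3 it went from 1.02 to 0.76, for Celf4 from 1.06 to 0.86 and for Celf6 from 0.91 to 0.60. For Elavl4, Nova1, Elavl1 and Rbfox2 it grew, from 0.26 to 0.49, 0.13 to 0.60, 0.86 to 1.15 and 0.18 to 0.73. With 4 arrays, and with these genes partly chosen for their differences, this is a description.

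**Figure D3:**
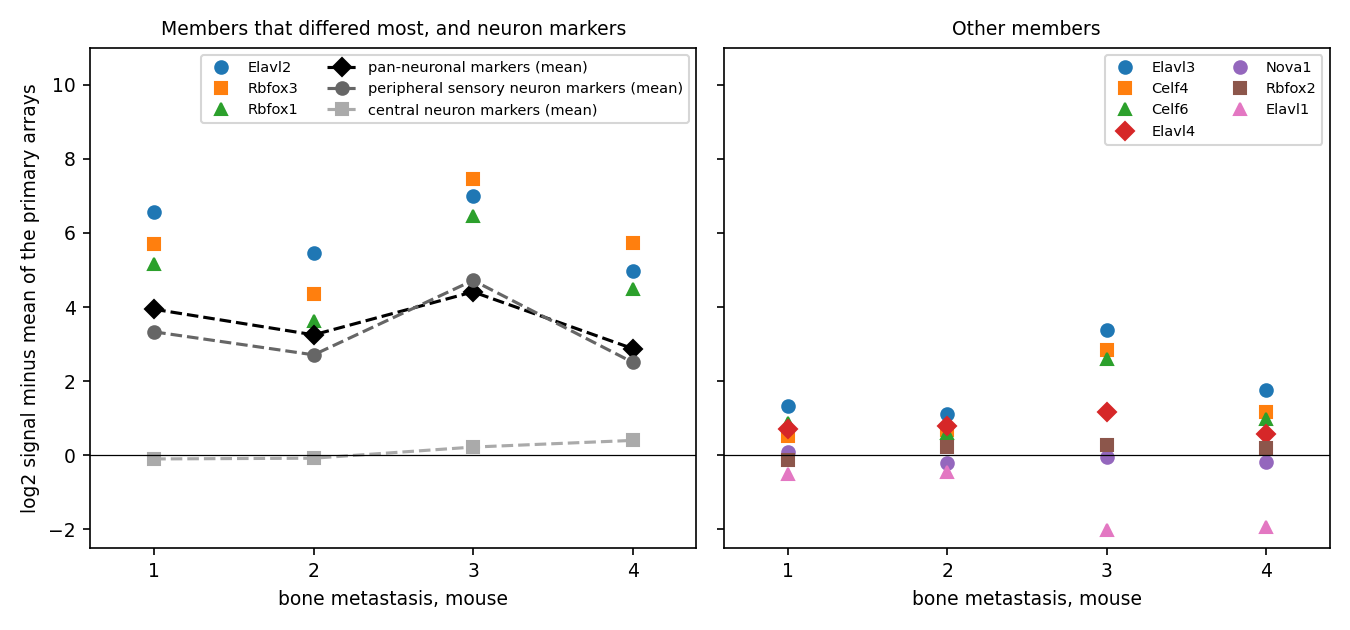
Log2 signal of each metastasis array minus the mean of the 4 primary arrays (vertical axis) by mouse (horizontal axis). The left panel shows Elavl2, Rbfox3 and Rbfox1 with the means of 3 neuron marker lists as dashed lines, and the right panel the other members. Metastasis 3 is highest for Elavl2, Rbfox3, Rbfox1 and both the pan-neuronal and sensory lists, while central neuron markers stay between -0.10 and 0.40.

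Markers of other cells that spine tissue can hold did not all move. The counts below stand beside 9.72% of all genes higher and 12.1% lower by limma. Of 8 skeletal muscle markers 1 rose, Tnnt3 by 0.75 (SE 0.16, limma adjusted p = 0.0131), with sums of 203 to 225 on primary and 228 to 325 on metastasis arrays, and 6 of the 8 lay below the array median in both groups. Muscle is the other tissue known for Rbfox1, and the part of muscle RNA in the Rbfox1 values was not tested. The call of Tnnt3 was lost without mouse 2 or mouse 3, where limma called 0 of the muscle markers (3 and 1 at an unadjusted p under 0.05). Of 5 measured Schwann cell markers 1 rose, S100b by 3.55 (SE 0.35), and 1 fell, Egr2 (-2.02, SE 0.34), with sums of 3993 to 7052 and 2273 to 4638. This count rests on the probe set: with the most variable one 3 rose and 1 fell, the median difference went from 0.08 to 1.15, and the probe sets of Mbp, the myelin basic protein gene, ran from 0.07 to 7.84. Of 7 central glia markers 1 rose and 0 fell, and the sums of 599 to 1107 and 3471 to 8327 follow Cnp, a myelin enzyme gene that rose by 2.94 (SE 0.33). The other central glia markers differed by 0.0 to 0.35 on the probe sets used, and 4 of the 7 lay below the array median in both groups. With the most variable probe sets 2 rose, however, and the other probe sets of Mobp ran from 0.03 to 3.84. Of 6 markers each, marrow granulocytes had 4 and the B lineage 6 that rose. Their sums were 499 to 973 and 178 to 257 in primary tumours and 11994 to 19491 and 2378 to 24114 in metastases. Of 5 macrophage markers 4 fell (sums 21760 to 36905 and 5155 to 13062), of 6 epithelial markers 1 fell, or 2 with the most variable probe sets (12808 to 14012 and 780 to 12657), and of 5 bone markers 1 rose (329 to 820 and 683 to 2511). No endothelial or erythroid marker passed the threshold by limma (0 of 5 and 0 of 3, with 0 and 1 at an unadjusted p under 0.05).

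For each of the 3 leading members the 5 genes nearest in profile were found among all genes, a measure that picks genes with a difference of like size. Nearness was the root mean square difference over the 8 arrays, each gene taken relative to its primary mean. For Elavl2 the nearest were Pirt, a regulator of the heat channel TRPV1 in sensory neurons (0.47), the neuronal stathmin gene Stmn3 (0.50), the neurofilament gene Nefm (0.53), Prg4, which encodes the joint lubricant lubricin (0.55), and Mapk10, the neuronal JNK kinase (0.56). For Rbfox3 they were Mapk10 (0.43), Rbms3, a further RNA-binding protein gene (0.60), Prkar1b, a regulatory subunit of protein kinase A (0.63), Pirt (0.64) and Elavl2 itself (0.69). For Rbfox1 they were Rgs7bp (0.33), Map7d2 (0.34), the granin gene Chgb (0.37), the axonal adhesion gene Cntnap2 (0.37) and the synuclein gene Sncg (0.39).

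Of 11 other RNA-binding protein genes enriched in neurons, none of them a member, limma called 0 higher and 0 lower, with 2 at an unadjusted p under 0.05, beside 21.8% of all genes called. Their median difference was 0.26, and 5 of the 11 lay below the array median in both groups. Nova2, the relative of Nova1, stood at 5.17 ± 0.15 and 5.69 ± 0.48 (SD, n = 4 each), a difference of 0.52 (SE 0.24, limma adjusted p = 0.156). Celf3 and Celf5, the relatives of Celf4 and Celf6, differed by 0.11 (SE 0.33) and 0.20 (SE 0.14), and Srrm4, a splicing activator of neuronal microexons, by 0.17 (SE 0.14). Ptbp2, the neuronal polypyrimidine tract binding protein, had a difference of -2.26 (SE 0.72, limma adjusted p = 0.0548) on its brightest probe set and of 1.83 on its other. Ptbp2 passed the threshold as lower in 5 alternatives: with the most variable probe sets (limma adjusted p = 0.048), with the filter on dim genes (0.0355), after scaling to the 75th percentile (0.0341), without metastasis 2 (-2.94, 0.00528) and without mouse 2 (-2.99, 0.0172). After the scaling to the 75th percentile Srrm3 passed as higher (limma adjusted p = 0.0488).

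Of 31 broadly expressed RNA-binding protein genes 2 rose and 3 fell, beside 9.72% of all genes higher and 12.1% lower, with a median difference of -0.52. Ewsr1 rose by 1.16 (SE 0.23, limma adjusted p = 0.00913) and Hnrnpk by 0.53 (SE 0.14, limma adjusted p = 0.0314). Tardbp, which encodes the splicing repressor TDP-43, changed by -2.49 (SE 0.55, limma adjusted p = 0.0144). Fxr1, a relative of the fragile X protein, changed by -1.46 (SE 0.28, limma adjusted p = 0.00785). Zfp36l2, which promotes decay of AU-rich messenger RNA, changed by -1.44 (SE 0.29, limma adjusted p = 0.00979). Other probe sets of Tardbp ran from -1.52 to 0.58, of Fxr1 from -0.72 to 0.20 and of Zfp36l2 from -0.12 to -0.09. Without metastasis arrays 3 and 4, a choice made after seeing the data, Tardbp, Fxr1 and Zfp36l2 differed by -1.38, -1.14 and -1.03. The part of RNA quality in these values was not tested. With the mouse as a block Hnrnpk was not called and Msi2 was (1.12, limma adjusted p = 0.045). The counts rest on the probe set: with the most variable one of each gene 1 rose and 16 fell, and Ewsr1 and Hnrnpk were then among the falls, at -1.83 and -1.37. Without mouse 3 or without mouse 4 limma called 0 of these genes, with 7 and 6 at an unadjusted p under 0.05.

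Of 3 regulators of epithelial splicing, programmes that RBFOX2 is known to share, 1 fell, beside 12.1% of all genes lower. Rbm47 changed by -2.20 (SE 0.54, limma adjusted p = 0.0211) and lost the call without primary replicate 2, 3 or 4, without metastasis replicate 3, and without mouse 2, 3 or 4. Esrp1 and Esrp2 differed by -0.55 (SE 0.24) and -0.15 (SE 0.12) and were not called, while the other probe set of Esrp2 gave 1.58 and was called higher as its most variable one (limma adjusted p = 0.0184).

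**Figure D4:**
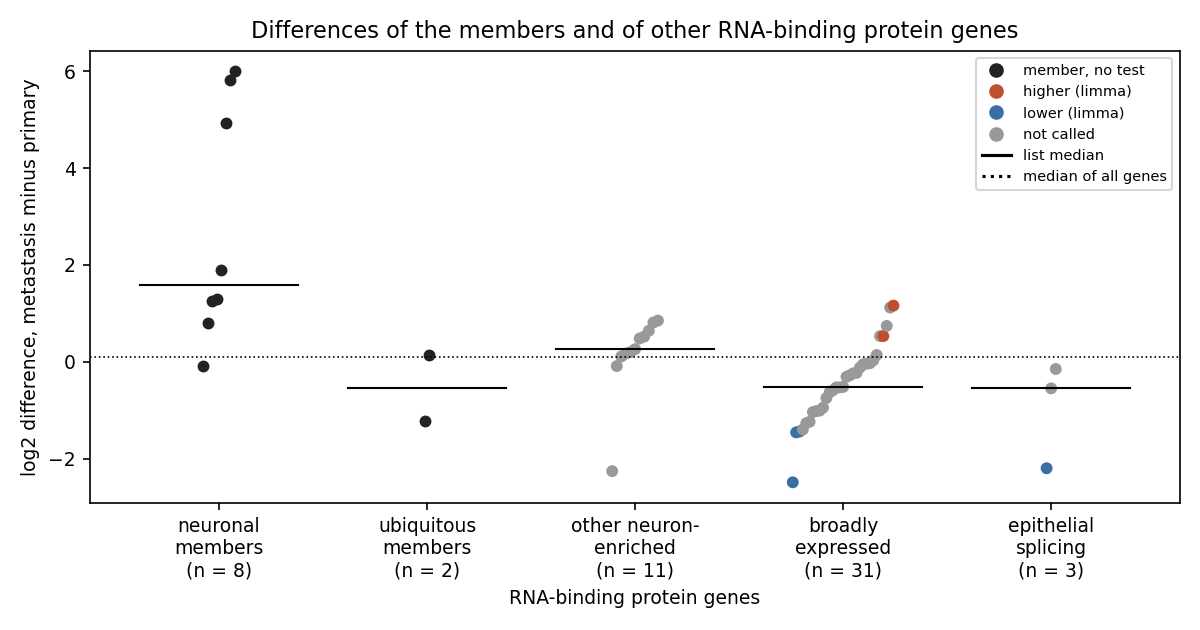
Difference in log2 signal, metastasis minus primary, of each gene in 5 groups of RNA-binding protein genes, with a bar at each median and a dotted line at the median of all genes. Members are black and untested, other genes are red where higher, blue where lower and grey where not called by limma. On the probe sets used, neuronal members reach 6.0 and the other neuron-enriched genes end at 0.85. The members were picked partly for large differences and the lists with earlier results of these data known, so nothing is read from this gap.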

How the data were processed

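RNA of 8 samples was amplified in 2 rounds, labelled with biotin and hybridised to 1 Affymetrix array each, per the labels' protocols. The log2 signals deposited by the authors came from RMA (background correction, quantile normalization, probe summarisation), as the submitters' processing notes name it. The RMA version was not stated. The platform annotation gave 1 symbol for 34945 of 45101 probe sets; 932 with several symbols, 9160 unnamed and 64 control probe sets were left out. Each of 18193 genes was represented by its brightest probe set (mean of the 8 arrays), which favours a group where the gene is high. Groups were compared with limma 3.58.1 in R 4.3.3 (two-sided, Benjamini-Hochberg over all genes, adjusted p under 0.05), without filter or block. On simulated data with the same spread in both groups, 67% of changes of 1.5 and 91% of changes of 3.0 were called. The spread of the real groups could differ, as for Rbfox1 (SD 0.04 in primary tumours and 1.2 in metastases). The number of arrays limits the precision (median SE 0.229). Per the design text, equal replicate numbers are 1 mouse; deviations from the group means correlated at -0.108 to 0.166 within mice. Each list was counted over all genes. The alternatives were other probe sets per gene, 2 scalings, a filter on dim genes, the mouse as a block and leaving out arrays or mice. Members and lists were chosen with earlier results of these data known. Named were all members, up to 3 called genes per direction and list, and 5 nearest profiles of the 3 members with the largest difference; other listed genes were named after their values were seen. Promoter windows (RefSeq, GRCm38.p6) were used for 8 of 10 members. Member windows on the chromosome of Celf4 were left out, and no window was used for Rbfox2. Python 3.11.15, numpy 2.4.6 and pandas 2.3.3 were used.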

Additional observations from a re-analysis of the deposited data

How the results depend on the processing

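The differences of Elavl1, Elavl2, Elavl3, Elavl4, Rbfox1, Rbfox3, Celf4 and Celf6 kept their direction in all 21 alternatives, and those of Rbfox2 and Nova1 turned in 3 and in 2 of those that gave a value. The median of the neuronal members ran from 0.99 to 2.41 and the mean of the ubiquitous members from -0.85 to -0.21. Sizes rest on the probe set: with the one that had the highest primary mean Elavl2 differed by 1.41 and Rbfox3 by 0.95, and with the mean of all by 2.45 and 2.79. Over all genes 2612 were called without primary replicate 2, 2324 without replicate 3, 2236 without replicate 4, and 1405 or 1942 when mouse 3 or mouse 4 was left out; over single arrays and mice the count ran from 1405 to 4813. With the replicate block it was 3284. The block gave 5 calls among broadly expressed genes, with Msi2 in place of Hnrnpk, 1 among epithelial regulators, 0 among other neuron-enriched genes, 12 of 13 pan-neuronal, 9 of 10 sensory and 0 of 10 central neuron markers, and it changed no other call of the RNA-binding protein lists. With every probe set tested on its own, an alternative chosen after seeing the data, 7214 of 34945 probe sets were called. This is a count of probe sets, not of genes. Calls among the other neuron-enriched genes went from 0 to 1 with the most variable probe set and with the filter on dim genes, to 2 with the scaling to the 75th percentile and to 1 without metastasis arrays 3 and 4 or 1 and 3, the last being choices made after seeing the data; over single arrays and mice they ran from 0 to 1. Calls among broadly expressed genes went from 5 to 17 with the most variable and 11 with the mean probe set, to 8 with that scaling, and to 9 and 3 without those pairs of metastasis arrays, and over single arrays and mice from 0 to 9. Epithelial regulators had 2 calls with the most variable and the mean probe set and 0 without metastasis arrays 1 and 3, and over single arrays and mice 0 to 1. The cause of these moves was not tested. Nova1 was left out by the filter on dim genes. Signal near background limits the folds of Elavl2, Rbfox1, Rbfox3 and Celf6.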
